A study of Mus musculus with 2 samples.

Results

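AP-1 and BATF transcription factors were followed through 10 genes, Jun, Junb, Jund, Fos, Fosb, Fosl2, Batf, Batf2, Batf3 and Maff, chosen by symbol and each present once among the 23238 gene symbols of the files. They were measured by RNA sequencing in bone marrow-derived dendritic cells (BMDCs), antigen-presenting cells grown from mouse marrow, in 1 library of cells given 100 nM UNE-C1 for 24 h and 1 Control library. UNE-C1, a stretch of the enzyme cysteinyl-tRNA synthetase, is known to bind and activate TLR2 paired with TLR6, Toll-like receptors of microbial lipopeptides. Both cultures were of female C57BL/6 origin, from mice 7 weeks old, grew with 20 ng/ml GM-CSF that was renewed on day 3, and were taken on day 6 as the loosely attached and floating fraction. The labels do not state what the Control culture received, whether it was kept for the same time, or how many mice each culture drew on. Since each group was a single library, the differences below are between 2 libraries without replicate error, and their intervals cover counting error only.

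AP-1 is a dimer of basic leucine zipper proteins in which a Jun protein pairs with a Fos protein, with another Jun or with a related factor, and which binds short DNA elements in the control regions of inflammatory and growth genes. Toll-like receptors reach it through MAP kinase cascades that phosphorylate Jun proteins and switch on transcription of Fos and Jun within minutes, and much of this early transcription is short-lived. BATF and BATF3 consist of little more than the zipper itself. They take the place of Fos beside a Jun protein and bind with the interferon regulatory factors IRF4 and IRF8 at shared elements of immune genes, and BATF3 is known as a factor that type 1 conventional dendritic cells need to develop. Small Maf proteins such as MAFF have a zipper without an activating domain and act through their partners.

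The UNE-C1 library held 15975821 reads over 14768 genes and the Control library 14857198 reads over 14940 genes. Counts are given as reads and as CPM, reads scaled to a library size corrected by TMM, and fold changes as the CPM ratio of UNE-C1 over Control with its exact 95% interval, or as log2 values after adding 1 CPM to each side. The kit reads each transcript near its 3' end, so that read number does not grow with transcript length and levels of different genes can be set beside each other, although how well each 3' end is captured was not measured. Of the labelled cell type's markers, Cd74 (2901 CPM in the UNE-C1 library and 2907 CPM in the Control library) and H2-Ab1 (2594 and 2732 CPM in the same order) were abundant, and Cd209a had no read in either library. Of 9 conventional dendritic cell markers, 8 reached 50 reads in either library. Of these, 1 was higher by 2-fold or more, Xcr1, and 2 were lower by that much, Itgax and Clec9a. Itgax stood at 246 CPM in the UNE-C1 library and 759 CPM in the Control library. Markers of neutrophils, which such cultures also hold, summed to 3214 CPM in the UNE-C1 library and 8327 CPM in the Control library, with 11 of 12 at least 2-fold lower and none at 0. Of 9 measured monocyte and macrophage markers 3 were higher and 3 lower, with sums of 4400.0 and 4051 CPM. Of 6 measured mast cell, basophil and eosinophil markers 3 were lower, with sums of 798 and 1215 CPM. Of 3 measured plasmacytoid dendritic cell markers 1 was higher, Bst2 (301 and 38.4 CPM), while Tcf4 rose and Ccr9 fell within 2-fold. Siglech, with 0 reads in the UNE-C1 library and 9 in the Control library, did not reach 50 reads. The sums of these markers were 432 and 127 CPM. None of 3 erythroid and megakaryocyte markers passed 2-fold. Klrd1 was the 1 measured T and natural killer cell marker and was lower, and no B cell marker reached 50 reads. In bulk RNA fewer cells of a type and less RNA per cell cannot be told apart.

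Of the 10 genes, Batf2 was higher and Fos lower in the UNE-C1 library by more than 3-fold. Jun, Junb and Batf were higher by smaller amounts, and the others stood close to their Control level under TMM scaling. Fosb, with 18 reads in the UNE-C1 library and 17 in the Control library, did not reach the floor of 50 reads in either library, and the other 9 did. On the log2(CPM + 1) scale 1 of these 9 was higher by 2-fold or more, where 9.31% of all 10469 genes past the floor were, and 1 was lower by 2-fold or more, where 9.42% of all genes were. The 9 ran from -1.61 to 2.55 with a median log2 fold change of 0.09, beside -0.00 over all genes. The counts of members past 2-fold are thus near the share of all genes past it, and what follows describes which members they were.

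**Figure D1:**
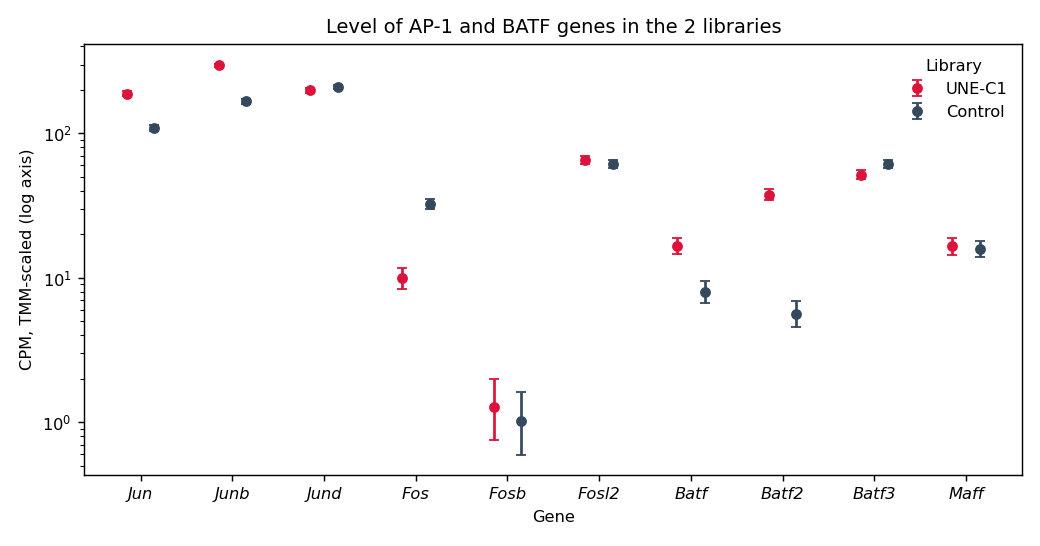
Level of each of the 10 genes in CPM on a log axis, with the UNE-C1 library (red) left of the Control library (dark blue). Points are single libraries and bars are exact 95% Poisson counting intervals. Batf2 stands at 37.6 CPM in the UNE-C1 library against 5.62 CPM in the Control library, and Fos at 9.94 against 32.5 CPM.

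The Jun proteins take part in nearly all AP-1 dimers, and their transcripts were the most abundant of the 10 genes in both libraries. Junb, whose protein can restrain as well as replace Jun, had 4193 reads in the UNE-C1 library and 2789 in the Control library, or 296 and 167 CPM. Its ratio was 1.77 (interval 1.69 to 1.86; log2 fold change 0.82). Junb lies on the minus strand of chromosome 8 (chr8:84974484-84978718, GRCm38), where 173 bases of its exons lie opposite those of Prdx2, at the 3' ends of both genes. Prdx2 itself had 4025 reads in the UNE-C1 library and 3049 in the Control library, and so went the same way as Junb. Since the counting is not stated to use strand, reads of the 2 genes in the shared stretch cannot be told apart. This limit holds for the Junb ratios and shares below as well.

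Jun, the c-Jun gene and the classical kinase-activated partner of Fos, had 2669 reads in the UNE-C1 library and 1825 in the Control library, or 188 and 109 CPM. The ratio of 1.73 (interval 1.62 to 1.83; log2 fold change 0.78) was close to that of Junb. The number of Junb reads for each Jun read was 1.57 in the UNE-C1 library (interval 1.50 to 1.65) and 1.53 in the Control library (1.44 to 1.62), a quotient of 1.03 with an interval of 0.952 to 1.11. This quotient does not depend on library scaling. Both ratios to Control stayed above 1 under every library scaling tried, between 1.36 and 1.74 for Jun and between 1.40 and 1.78 for Junb.

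Jund, the Jun gene that most cells express steadily, was the exception among the 3. It had 2828 reads in the UNE-C1 library and 3531 in the Control library, or 199 and 211 CPM, with a ratio of 0.945 (interval 0.899 to 0.993). Over the library scalings Jund was between 1.05-fold and 1.34-fold lower. The number of Junb reads for each Jund read was 1.48 in the UNE-C1 library and 0.790 in the Control library, 1.88 times as many (interval 1.75 to 2.01), and that of Jun reads for each Jund read was 0.944 and 0.517, 1.83 times as many (1.69 to 1.97). Junb therefore led the family in the UNE-C1 library, with 43.3% of its 9690 reads (interval 42.3 to 44.3%), whereas Jund led it in the Control library, with 43.4% of 8145 reads (42.3 to 44.4%). Jund shares 877 exonic bases with Gm11175 on the opposite strand and Jun 232 with Junos, neither of which is listed in the files. The summed Jun family stood at 683 CPM in the UNE-C1 library and 487 CPM in the Control library, 1.40-fold higher (interval 1.36 to 1.45), and between 1.11-fold and 1.41-fold higher over the library scalings.

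The promoters of Fos, Jun and Junb are shown because these genes had the largest differences among the Jun and Fos members and moved in opposite directions. Each line gives the 250 bases before the RefSeq transcription start on the gene's strand, 5' to 3', from RefSeq's GRCm38.p6 annotation. Capitals mark matches on either strand to TGANTCA (the AP-1 site), TGACGTCA (the cyclic AMP response element), TGACATCA (an AP-1 variant), TGACG (the core of the cyclic AMP response element, which overlaps the full element where that occurs), CCAAT and TATAAA.
Fos: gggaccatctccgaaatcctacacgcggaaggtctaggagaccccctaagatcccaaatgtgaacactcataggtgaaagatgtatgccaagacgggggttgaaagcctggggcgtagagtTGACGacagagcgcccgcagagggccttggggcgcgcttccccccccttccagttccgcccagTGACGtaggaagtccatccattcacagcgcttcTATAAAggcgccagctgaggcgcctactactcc
Jun: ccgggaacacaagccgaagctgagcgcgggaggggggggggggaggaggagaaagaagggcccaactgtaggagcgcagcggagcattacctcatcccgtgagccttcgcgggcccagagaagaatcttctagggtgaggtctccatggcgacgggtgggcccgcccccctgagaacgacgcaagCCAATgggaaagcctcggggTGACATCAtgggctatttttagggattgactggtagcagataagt
Junb: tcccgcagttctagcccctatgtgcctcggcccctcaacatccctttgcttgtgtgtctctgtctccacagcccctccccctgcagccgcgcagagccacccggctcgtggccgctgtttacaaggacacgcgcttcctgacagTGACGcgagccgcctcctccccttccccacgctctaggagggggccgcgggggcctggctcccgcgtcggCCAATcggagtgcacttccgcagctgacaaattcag
The Fos window (chr12:85473640-85473889, plus strand) held TGACG 129 and 66 bases before the start and TATAAA 33 bases before it. The Jun window (chr4:95052223-95052472, minus strand) held TGACATCA 45 bases before the start and CCAAT 65 bases before it. The Junb window (chr8:84978749-84978998, minus strand) held TGACG 106 bases before the start and CCAAT 36 bases before it. A window was found for 9 of the 10 genes, 11 windows in all since Maff has several starts. Batf2 had no window, so its promoter was not searched for any motif. A match is a description of letters only. TGACG occurred in 6 of the 11 windows, belonging to Batf, Fos, Fosb, Junb and Maff, and in 17.8% of all 32851 windows. TGACATCA occurred in Jun and in 1 window of Maff, and in 2.93% of all windows. TGACGTCA occurred in 1 window of Maff and in 1.55% of all windows. No window held TGANTCA, against 6.75% of all windows. CCAAT occurred in 2 of the 11 windows and in 33.8% of all, and TATAAA in 1 of the 11 and in 12.4% of all. Of motifs searched but not marked in capitals, the kappaB site occurred in 4 of the 11 windows, those of Fos, Fosb and Fosl2 and 1 of Maff, and in 3.90% of all windows. The interferon-stimulated response element core occurred in Fosl2 alone (2.98% of all windows), and the gamma activated site TTCNNNGAA in Batf3 alone (7.02%). The CArG box occurred in none of the 11 (1.47%). Only the 250 bases before each start were searched, so sites further upstream are not covered. The TGACG letters were found in Fos and Junb, which differed between libraries in opposite directions, and also in Batf, Fosb and Maff. Whether any motif bears on these differences was not tested.

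Fos proteins cannot pair with each other and need a Jun partner, and their transcripts were fewer than those of the Jun family in both libraries. Fos, the c-Fos gene and the model of an immediate early gene, had 141 reads in the UNE-C1 library and 544 in the Control library, or 9.94 and 32.5 CPM. It was 3.27-fold lower in the UNE-C1 library (interval 2.71 to 3.96; log2 fold change -1.61), and between 3.25-fold and 4.15-fold lower over the library scalings. Of all genes past the floor, 3.25% had a lower log2 fold change. For each Jun read there were 0.0528 Fos reads in the UNE-C1 library (interval 0.0443 to 0.0626) and 0.298 in the Control library (0.270 to 0.328). Neutrophil markers, given above, were lower in the same library, and their part in the Fos difference was not tested.

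Fosl2, which encodes FRA-2, a Fos relative without the strong activating domain of c-Fos, had 929 reads in the UNE-C1 library and 1026 in the Control library. These are 65.5 and 61.3 CPM, and the ratio of 1.07 (interval 0.976 to 1.17) turned to 0.842 when libraries were scaled by total reads. Fosl2 had 6.59 reads for each Fos read in the UNE-C1 library (interval 5.51 to 7.92) and 1.89 in the Control library (1.70 to 2.10), 3.49 times as many whatever the scaling (2.83 to 4.32). Of the reads of Fos, Fosb and Fosl2 together, Fosl2 took 85.4% of 1088 in the UNE-C1 library (interval 83.1 to 87.4%) and 64.7% of 1587 in the Control library (62.2 to 67.0%). Fosb, a Fos relative best known from neurons, stood at 1.27 CPM in the UNE-C1 library and 1.02 CPM in the Control library, a ratio of 1.25 whose interval of 0.607 to 2.58 includes both a lower level and a more than 2-fold higher one. The 3 genes summed to 76.7 CPM in the UNE-C1 library and 94.8 CPM in the Control library, a ratio of 0.809 (interval 0.748 to 0.874). Under total read scaling that ratio was 0.638.

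Fosl1, which encodes FRA-1, the remaining Fos relative, was not among the 10 genes. Its 141 reads in the UNE-C1 library equalled those of Fos, against 38 in the Control library, or 9.94 and 2.27 CPM. Its ratio was 4.38 (interval 3.04 to 6.44; log2 fold change 1.74), in the direction opposite to Fos.

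**Figure D2:**
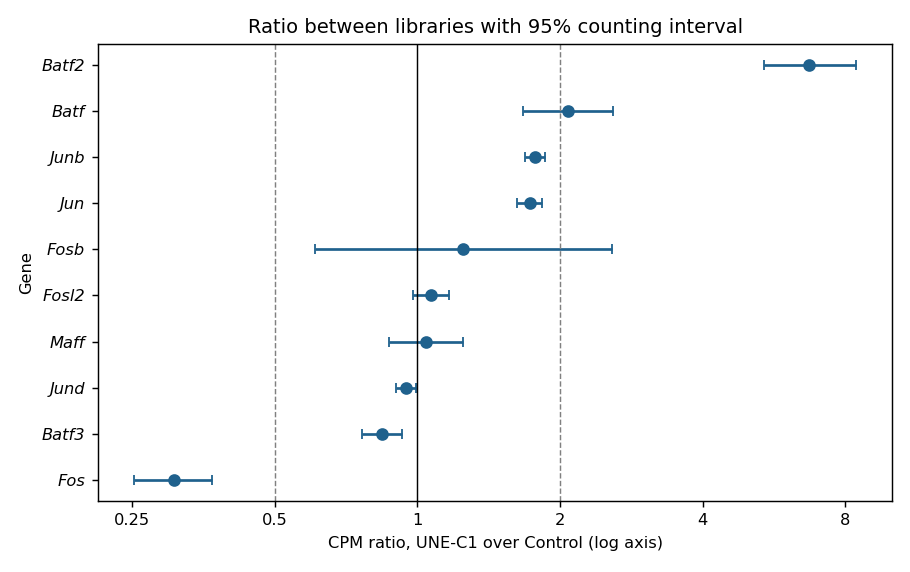
CPM ratio of UNE-C1 over Control for each of the 10 genes on a log axis, ordered by size, with exact 95% counting intervals. The solid line marks a ratio of 1 and the dashed lines 2-fold. Batf2 (6.70), Batf (2.08) and Fos (0.306) lie outside the dashed lines, with the interval of Batf reaching across its line, and the intervals of Fosb, Fosl2 and Maff include 1.

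Batf2 had the largest difference of the 10 genes. Its protein is a BATF relative that activated macrophages make in response to interferon and bacterial products. Batf2 had 534 reads in the UNE-C1 library and 94 in the Control library, or 37.6 and 5.62 CPM. It was 6.70-fold higher (interval 5.37 to 8.44; log2 fold change 2.55), and 98.3% of all genes past the floor had a lower log2 fold change. The ratio ran from 5.28 to 6.74 over the library scalings. Batf2 (chr19:6140983-6172476, plus strand, GRCm38) overlaps Arl2 on the opposite strand at the 5' ends of both genes, with 51 exonic bases in common. Arl2 had 139 reads in the UNE-C1 library and 222 in the Control library, and so went the other way.

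Batf, the founding member, which pairs with Jun proteins and IRF4 in lymphocytes, had 236 reads in the UNE-C1 library and 134 in the Control library, or 16.6 and 8.01 CPM. The CPM ratio was 2.08 (interval 1.67 to 2.59). Its log2 fold change of 0.97 lay just inside 2-fold on the log2(CPM + 1) scale and was 1.05 with 0.1 CPM added in place of 1. Under total read scaling the CPM ratio was 1.64.

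Batf3, the type 1 dendritic cell factor, did not follow the other BATF genes. It had 737 reads in the UNE-C1 library and 1032 in the Control library, or 52.0 and 61.7 CPM, and was 1.19-fold lower (interval 1.08 to 1.31). Over the library scalings Batf3 was between 1.18-fold and 1.51-fold lower. For each Batf3 read there were 0.725 Batf2 reads in the UNE-C1 library (interval 0.647 to 0.811) and 0.0911 in the Control library (0.0729 to 0.113), 7.95 times as many (6.24 to 10.2). Batf3 took 48.9% of the 1507 Batf family reads in the UNE-C1 library (interval 46.4 to 51.5%) and 81.9% of 1260 in the Control library (79.7 to 84.0%). Batf2 took 35.4% in the UNE-C1 library (33.0 to 37.9%) and 7.46% in the Control library (6.07 to 9.05%). The family summed to 106 CPM in the UNE-C1 library and 75.3 CPM in the Control library, 1.41-fold higher (interval 1.31 to 1.52), and 1.11-fold under total read scaling.

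**Figure D3:**
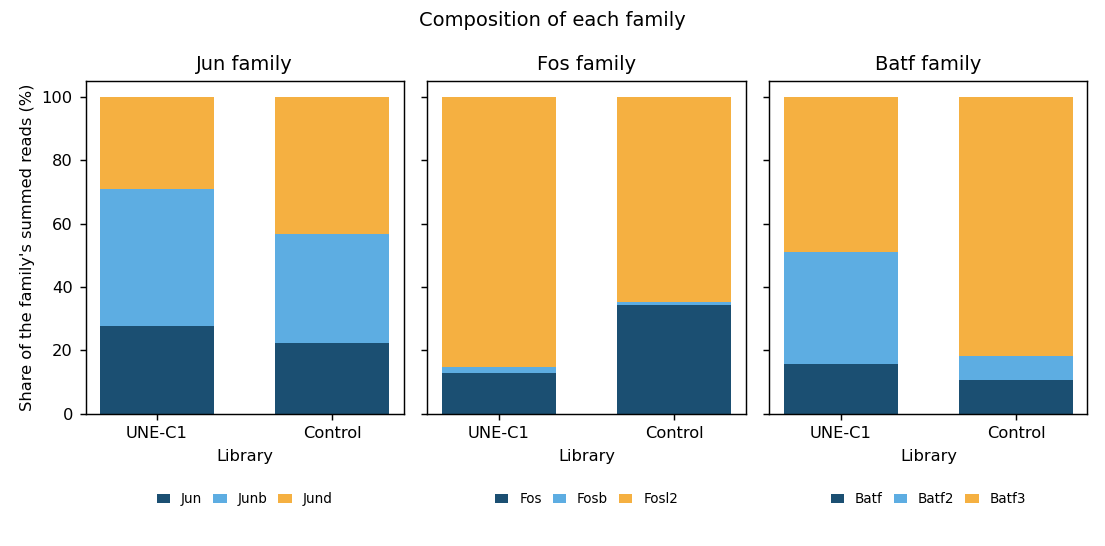
Share of each family's summed reads, in percent, held by its members in the UNE-C1 library (left bar) and the Control library (right bar), for the Jun, Fos and Batf families. Junb holds 43.3% of Jun reads in the UNE-C1 library, Fosl2 holds 85.4% of the reads of the 3 Fos genes, and Batf3 holds 48.9% of Batf reads against 81.9% in the Control library.

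Maff, the small Maf gene of the group, had 234 reads in the UNE-C1 library and 265 in the Control library, or 16.5 and 15.8 CPM. Its ratio of 1.04 (interval 0.870 to 1.25) turned to 0.821 under total read scaling and to 0.980 under upper quartile scaling, so no direction can be read from it. Its relative Mafk had more reads beside it in the UNE-C1 library, with 0.526 Maff reads for each Mafk read (interval 0.447 to 0.617) against 0.936 in the Control library (0.789 to 1.11). Their quotient of 0.562 has an interval of 0.443 to 0.712.

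The order of levels changed with these differences. In the UNE-C1 library the order from high to low was Junb, Jund, Jun, Fosl2, Batf3, Batf2, Batf, Maff, Fos and Fosb, and the counting intervals of neighbours overlapped between Jund and Jun and between Batf and Maff. In the Control library it was Jund, Junb, Jun, Batf3, Fosl2, Fos, Maff, Batf, Batf2 and Fosb, with overlapping intervals for Batf3 and Fosl2 and for Batf and Batf2. Fos thus went below Batf, Batf2 and Maff in the UNE-C1 library. Overlap here concerns counting error, since no replicates exist.

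The other genes of the pathway were taken from 6 lists, chosen with earlier results of these data known. Their counts stand beside the 9.31% of all genes past the floor that were 2-fold higher and the 9.42% that were 2-fold lower. The lists share Nfil3, Jdp2 and Dusp1, which are counted in each list that holds them. Among 31 measured factors of the wider basic leucine zipper class, 10 passed 2-fold upward in the UNE-C1 library and 2 passed it downward, with a median log2 fold change of 0.35. Under total read scaling, which moved the median of all genes to -0.33, 6 passed it upward. Nfil3, a repressor that acts upstream in type 1 dendritic cell development, had 97.2 CPM in the UNE-C1 library and 21.2 CPM in the Control library (4.58-fold, interval 4.07 to 5.16). Jdp2, whose protein pairs with Jun and represses AP-1 sites, had 445 and 121 reads in the same order (4.34-fold, 3.54 to 5.35). Ddit3, which encodes the stress factor CHOP, was 3.74-fold higher (3.47 to 4.03). Atf3, a stress-induced Jun partner that is known to damp Toll-like receptor responses, had 827 CPM in the UNE-C1 library and 304 CPM in the Control library (2.72-fold, 2.63 to 2.81), more reads than any of the 10 genes in either library.

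Other immediate early genes went both ways. Of 25 measured, 5 passed 2-fold upward and 3 downward, with a median of 0.13 that turned to -0.21 under total read scaling. Ier3, a survival gene, had 4705 reads in the UNE-C1 library and 789 in the Control library (7.03-fold higher, interval 6.52 to 7.60). Dusp1, a phosphatase that shuts off the MAP kinases JNK and p38, had 206 CPM in the UNE-C1 library and 31.6 CPM in the Control library (6.50-fold higher, 5.93 to 7.15). Egr2, a zinc finger factor, had 331 and 1943 reads in the same order (4.98-fold lower, 4.43 to 5.61), and Myc, the growth regulator, had 2 and 96 reads (40.7-fold lower, 11.0 to 341). Egr1 was 2.02-fold lower by the CPM ratio (1.58 to 2.61), with a log2 fold change of -0.92.

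Transcripts of the kinases that activate AP-1 proteins mostly stayed within 2-fold. Of 30 measured MAP kinase cascade genes, 1 passed 2-fold upward and 2 downward, and 27 lay between. Map2k1, which encodes the ERK-activating kinase MEK1, was 2.81-fold higher (interval 2.57 to 3.07). Mapk13, a p38 isoform on 16 reads in the UNE-C1 library and 69 in the Control library, was 3.66-fold lower (2.10 to 6.75), and Rps6ka3, an ERK-activated kinase, 2.44-fold lower (2.20 to 2.71). Map3k4, an upstream kinase, had a log2 fold change of 0.72. Kinase activity was not measured. Of 23 measured cofactors and regulators of AP-1 proteins, 2 passed 2-fold upward, Dusp1 and Jdp2, and 1 downward, Nfatc2, a calcium-activated partner of AP-1 with 44 reads in the UNE-C1 library and 132 in the Control library. The chromatin remodeller Smarca4 stood at 0.34.

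Textbook AP-1 target genes were likewise split. Of 24 measured, 9 passed 2-fold upward and 7 downward, with a median of 0.15 that turned to -0.19 under total read scaling. Il6, an inflammatory cytokine, had 226 reads in the UNE-C1 library and 6 in the Control library (44.4-fold higher, interval 20.1 to 122). Hmox1, which degrades heme, and Ptgs2, the inducible cyclooxygenase, had log2 fold changes of 3.41 and 3.27. All 3 are driven by other factors as well, and nothing here ties a target to a given AP-1 gene.

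**Figure D4:**
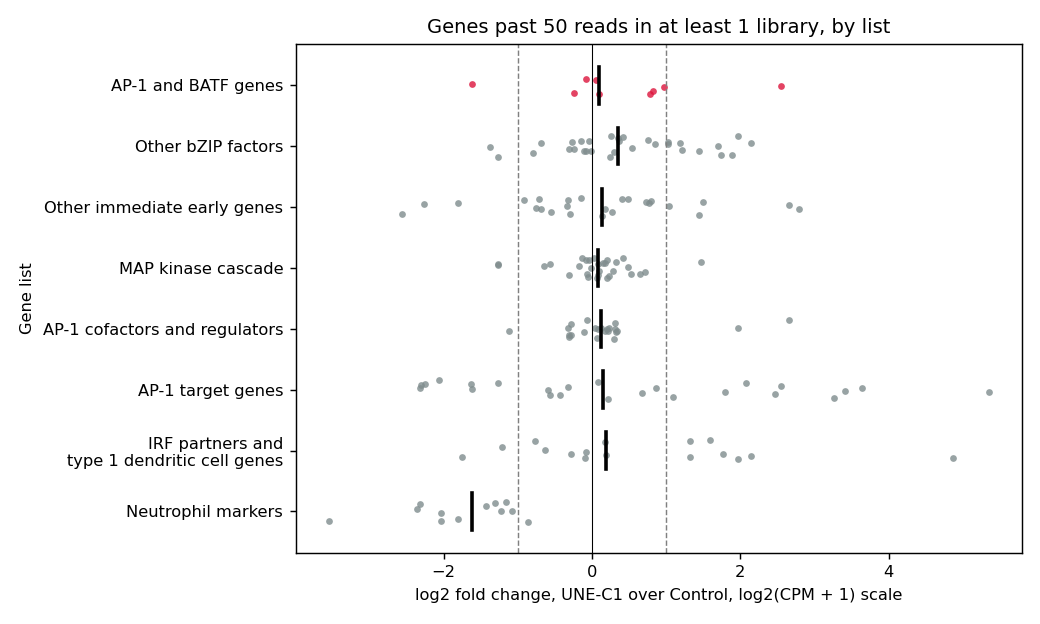
Log2 fold change, UNE-C1 over Control, on the log2(CPM + 1) scale for genes that reached 50 reads in either library, 1 point per gene, for the AP-1 and BATF genes (red) and 7 other lists (grey). Black bars are medians, the solid line is 0 and the dashed lines mark 2-fold. The 9 AP-1 and BATF genes have a median of 0.09, while the neutrophil markers have a median of -1.61.

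The partners of BATF proteins and the genes of the dendritic cell type that needs BATF3 formed the last list. Of 16 measured genes, 7 passed 2-fold upward and 2 downward, while 9 had a log2 fold change above 0 and 7 below. The median of 0.19 turned to -0.12 under total read scaling and to -0.09 without the floor on reads. Irf8, the partner of BATF3, had 991 CPM in the UNE-C1 library and 396 CPM in the Control library (2.50-fold, interval 2.43 to 2.57), whereas Irf4 was 1.22-fold lower (1.07 to 1.39). Irf1, an interferon-induced factor outside the list that is known to associate with BATF2, was 2.70-fold higher (2.57 to 2.83). For each Irf8 read there were 0.0524 Batf3 reads in the UNE-C1 library and 0.156 in the Control library, a quotient of 0.337 (0.305 to 0.372). Ifi205, of an interferon-inducible family, was 30.4-fold higher (27.5 to 33.8), Tlr3, a receptor for viral RNA, 4.36-fold (3.51 to 5.46), and the chemokine receptor Xcr1 4.13-fold (3.04 to 5.70) on 189 reads in the UNE-C1 library and 54 in the Control library. Of the 2 genes past 2-fold downward, the type 1 dendritic cell receptor Clec9a had 34 and 175 reads in the same order. Cd36, the other, had 3866 and 10633 reads. The 4 listed genes below the floor, Cadm1, Cd8a, Itgae and Tlr11, each had fewer reads in the UNE-C1 library. Clec9a, Cd36 and these 4 were named after their values were seen. Actb, a common reference gene, stood at 0.27 on the log2 scale.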

How the data were processed

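RNA of 1 UNE-C1 and 1 Control culture was made into 3'-end libraries with a QuantSeq kit (500 ng RNA input), per the labels' protocols. Read counts, 1 whole number for each gene symbol, were deposited without normalization, a unit read from the values. Bowtie2, edgeR and the mm10 build appear in the submitters' processing notes, and the counter, the annotation and the handling of strand and of multiply mapped reads are not stated. Intervals treat each read as an independent count and cover counting error only. No molecular identifiers are named, so copies made in amplification cannot be set apart, and the intervals may be too narrow.

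Repeated symbols (35) were summed. CPM used TMM effective library sizes (edgeR 4.0.16, R 4.3.3), with factors of 0.888 for UNE-C1 and 1.13 for Control. Log2 fold changes add 1 CPM, which holds back genes with few reads. Ratios have exact Clopper-Pearson intervals, shares exact binomial intervals, and quotients within libraries exact conditional intervals (scipy 1.17.1). Genes that reached 50 reads in either library were compared and called past 2-fold. No p-value was computed. The fold change and interval formulas were tested on simulated Poisson counts with known changes. That simulation scaled by a median ratio in place of TMM and held no variation between cultures. Overlaps come from GENCODE M21 (GRCm38, also called mm10). Protein sequences were not analysed here.

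The members, 6 gene lists and 8 marker lists were chosen with earlier results of these data known. Named genes are the members, up to 4 per list with the largest change, and Irf4, Irf8, Irf1, Atf3, Fosl1, Egr1, Dusp1 and Actb. Clec9a, Cd36, Cadm1, Cd8a, Itgae, Tlr11, Itgax, Mafk, Prdx2, Arl2, Cd74, H2-Ab1, Cd209a, Klrd1, Bst2, Tcf4, Ccr9 and Siglech were added after their values were seen. Some results are not reported here. No genes are named for a like pattern, since 2 libraries give each gene a single ratio. Alternatives were 4 other library scalings, 2 other pseudocounts and 2 other floors.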

Additional observations from a re-analysis of the deposited data

How the results depend on the processing

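Over 8 alternatives (4 library scalings, pseudocounts of 0.1 and 5 CPM, no floor and a floor of 200 reads), 69 of 73 values of the 10 genes kept their direction and their side of 2-fold. The floor does not enter a gene's own fold change. Values under the 2 other floors therefore equalled the main ones by construction, and only the scalings and pseudocounts could move a value. Fosb, below the floor, was counted only without a floor, where its value could not move. The tally thus does not cover the response of Fosb to scaling or pseudocount. The CPM ratio of Fosb was 1.25 under TMM and 0.985 under total reads. Under total reads the log2 fold changes of Fosl2 and Maff turned to -0.24 and -0.27, and the median of the measured members to -0.24, while the median of all genes moved to -0.33, and upper quartile scaling turned Maff to -0.027. With 0.1 CPM added Batf passed 2-fold at 1.05, so that 2 members in place of 1 lay at least 2-fold above Control. Fos stayed between -1.94 and -1.33 and Batf2 between 2.01 and 2.72.

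Of all genes, 986 lay at least 2-fold below Control, against 1693 under total reads, 484 with 5 CPM added and 579 with the floor of 200 reads. The share of higher genes among those past 2-fold was 49.7%, against 28.0% under total reads. List medians that changed sign under total reads were those of the kinases (-0.26, and -0.0077 under upper quartile scaling), immediate early genes (-0.21), AP-1 targets (-0.19), cofactors (-0.22) and BATF partners (-0.12, and -0.088 without a floor). Scaling by total reads lowers every CPM ratio by the same factor, and the log2(CPM + 1) values of genes with few reads by somewhat less. No paired analysis was possible because each group has 1 library. For Fosb, on 18 and 17 reads, depth leaves a wide interval, from 1.65-fold lower to 2.58-fold higher.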

Other observations

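Basic leucine zipper factors outside AP-1 also differed between the libraries. The following were chosen after their values were seen. Cebpa and Cebpd, factors of myeloid differentiation, were lower in the UNE-C1 library, with 456 and 271 reads there against 1418 and 790 in the Control library (log2 fold changes -1.37 and -1.26). Their relative Cebpb, which acts in inflammatory gene induction, had 3605 reads in the UNE-C1 library and 2518 in the Control library (0.75). Maf, a large Maf factor, had 143 CPM in the UNE-C1 library and 43.4 CPM in the Control library (3.29-fold, interval 3.02 to 3.59). Nfe2l2, which encodes the antioxidant regulator NRF2, a partner of small Maf proteins, had 392 CPM in the UNE-C1 library and 680.5 CPM in the Control library (log2 fold change -0.79), while Hmox1, one of its known targets, was 10.7-fold higher. Crem, a cyclic AMP-responsive factor, was 2.44-fold higher (2.06 to 2.91).

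Several matrix protease genes on the AP-1 target list were lower in the UNE-C1 library, and these too were chosen after their values were seen. Mmp13 had 76.4 CPM in the UNE-C1 library and 323 CPM in the Control library, Plau 7.54 and 39.7 CPM, and the urokinase receptor Plaur 43.1 and 105 CPM. Mmp9, at 84.5 and 427 CPM, is also a neutrophil marker, and neutrophil markers were lower in the same library. Mmp12, made by macrophages, stood at 2315 and 7149 CPM, while the membrane-bound Mmp14 stood at 393 and 373 CPM. Whether the number of such cells differed was not tested.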
